A study of Saccharomyces cerevisiae with 30 samples.

Results

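The 6 samples described here fall on either side of the boundary between the first and the second cell cycle of 1 synchronized yeast culture. The samples taken at 110, 120 and 130 min after release were compared with those taken at 60, 70 and 80 min, 6 of the 30 samples of the series. The comparison used the 5137 of 7127 annotated features (72.1%) whose mean over the 30 time points was at least 10 TPM, a length-adjusted share of each library's transcripts. Cells were Saccharomyces cerevisiae of the BF264-15D background, MATa bar1, grown in YEPDextrose at 38.5°C, and all 6 samples share this genotype, medium and temperature. The culture was held in G1 by alpha-factor, a mating pheromone, for 150 min and was then released. A bar1 strain lacks the protease that degrades the pheromone. Total RNA was taken every 10 min, with 1 library per time point, so the 3 time points of a window are not replicates and no p-value is given. Sample 100 min, between the windows, was left out because it is listed as a STRIPE, the study's name for a time point whose values are shifted across the transcriptome. The values are those of a single culture, and a culture that loses synchrony mixes cells of several stages, so fewer cells in a stage and less RNA per cell cannot be told apart.

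In budding yeast, transcription runs through the cycle in waves. The factors SBF and MBF activate the G1/S genes of bud formation and DNA replication, histone genes follow in S phase, and Mcm1 with the forkhead protein Fkh2 and Ndd1 activates the CLB2 cluster of mitotic genes. The products of that cluster include Swi5, which activates M/G1 genes of mitotic exit and cell separation, after which the G1 cyclin Cln3 starts the next wave.

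Each library was scaled by its median ratio to the series, so that the median feature stays near 0 change, and these scaled TPM are the levels given below. A difference is the mean of log2(scaled TPM + 1) at 110-130 min minus that at 60-80 min, so it understates the change of low features. A feature was called higher or lower when the windows did not overlap and the difference was at least 2-fold, 1 on the log2 scale. By this rule 27 features (0.526% of the features used) were higher and 18 (0.35%) were lower. Without a minimum size, 1085 features (21.1%) were higher and 837 (16.3%) were lower with no overlap, and the windows of the other 3215 features overlapped. The median difference over all features was 0.01, and the values from the 5th to the 95th percentile ran from -0.32 to 0.43. The median SD of a feature over the 3 time points was 0.095 at 60-80 min and 0.082 at 110-130 min, both on the log2 scale. Of the non-overlapping features 56.5% were higher and 43.5% lower. On the TPM as deposited, in which the median of all features lies 0.13 lower, these shares were 17.2% and 82.8%, so small differences below are relative to the median feature. The number of features called higher also rests on the 60 min library. Without it 15 features were called higher and 17 lower, and 14 of the 27 and 14 of the 18 calls above were among them. Without the 110 min library, which the text and methods of the study name as aberrant where its table has 100 min, 27 features were called higher and 20 lower.

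The letters upstream of 4 genes from the groups below are shown first. Each window holds 300 bases, from 400 to 101 bases before the annotated start codon, read 5′ to 3′ on the gene's strand from the RefSeq R64 genome. PCL1 is a G1/S gene, HOF1 a gene of the CLB2 cluster, and HSP12 and PGM2 are stress-induced genes. The windows are chrXIV:87497-87796 for PCL1 (plus strand), chrXIII:334898-335197 for HOF1 (plus strand), chrVI:106856-107155 for HSP12 (plus strand) and chrXIII:477707-478006 for PGM2 (minus strand). Capitals mark the SBF motif CGCGAAA in PCL1, the forkhead motif GTAAACA in HOF1 and the stress element AGGGG in HSP12 and PGM2, on either strand.
PCL1: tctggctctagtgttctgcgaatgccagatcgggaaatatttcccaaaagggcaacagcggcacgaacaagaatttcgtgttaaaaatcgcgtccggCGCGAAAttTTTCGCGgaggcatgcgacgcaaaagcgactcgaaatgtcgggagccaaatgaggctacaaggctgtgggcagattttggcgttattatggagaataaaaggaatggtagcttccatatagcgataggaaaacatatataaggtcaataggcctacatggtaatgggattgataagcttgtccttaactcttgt
HOF1: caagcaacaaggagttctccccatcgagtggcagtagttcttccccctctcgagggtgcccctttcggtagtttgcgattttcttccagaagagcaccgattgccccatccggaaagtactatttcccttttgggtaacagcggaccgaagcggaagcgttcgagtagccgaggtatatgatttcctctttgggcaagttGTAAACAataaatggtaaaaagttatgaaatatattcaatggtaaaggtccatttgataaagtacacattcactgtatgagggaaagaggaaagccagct
HSP12: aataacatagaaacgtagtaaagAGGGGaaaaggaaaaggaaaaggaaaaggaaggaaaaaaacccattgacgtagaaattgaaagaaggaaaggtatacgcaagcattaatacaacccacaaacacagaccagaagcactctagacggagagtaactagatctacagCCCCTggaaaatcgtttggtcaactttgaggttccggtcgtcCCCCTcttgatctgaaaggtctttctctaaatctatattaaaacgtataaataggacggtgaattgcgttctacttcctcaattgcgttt
PGM2: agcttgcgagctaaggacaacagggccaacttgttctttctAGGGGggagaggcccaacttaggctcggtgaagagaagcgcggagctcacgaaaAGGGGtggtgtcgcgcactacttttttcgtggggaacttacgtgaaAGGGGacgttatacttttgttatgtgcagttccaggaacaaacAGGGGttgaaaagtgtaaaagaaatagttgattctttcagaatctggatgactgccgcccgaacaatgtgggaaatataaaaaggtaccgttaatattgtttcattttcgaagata

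PCL1 held 2 marked matches that face each other, HOF1 held 1, HSP12 held 3 and PGM2 held 4. HOF1 also held 2 matches of AGGGG, which are not marked in its window. Among the CLB2 cluster genes called lower, HOF1 alone held GTAAACA. Over all features used, 4769 had such a window. The stress element AGGGG was present in 23.9% of them, in 17 of the 20 windows of features called higher and in 2 of the 14 of features called lower. The forkhead motif GTAAACA was present in 6.06% of all windows, in 5 of 14 of the features called lower and in 1 of 20 of those called higher. In the G1/S list, 21 of 42 windows held the MBF motif ACGCGT, against 3.75% of all windows, and 13 held CGCGAAA, against 4.70%. In the CLB2 cluster, 11 of 28 held GTAAACA. In the general stress list, 26 of 27 held AGGGG. In the ribosome biogenesis list, 52 of 81 held GATGAG, the PAC motif, against 18.6%. Every motif was searched on both strands, and a match is a match of letters, not evidence of binding.

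The mitotic genes were lower at 110-130 min. Of the 28 CLB2 cluster members used, 24 fell with no overlap of the windows, 6 of them at least 2-fold, and 0 rose. These shares were 85.7% and 21.4%, beside 16.3% and 0.35% of all features. The median difference was -0.74, beside 0.01 over all features. The 6 that passed the 2-fold rule were PMP1, PMP2, KIN3, CHS2, HOF1 and ALK1. The other 4 members, RAX1, TPO4, NUD1 and AMN1, overlapped and were looked up after their values were seen. AMN1, which restrains mitotic exit in daughter cells, differed from the rest with 22.02, 48.5 and 86.2 scaled TPM at 60, 70 and 80 min and 69.6, 57.4 and 56.0 at 110, 120 and 130 min. The number of members lower without overlap ranged from 19 to 26 over the alternatives tried.

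CLB2, the main mitotic cyclin gene, stood at 39.6, 35.3 and 27.3 scaled TPM at 60, 70 and 80 min and at 16.9, 17.7 and 15.1 at 110, 120 and 130 min. It fell by 0.98 on the log2 scale, a level 1.98-fold lower, with SDs over time points of 0.27 and 0.11. Its earlier levels lay above the later ones at every time point and decreased through the first window. CLB1, its paralog, fell by 0.76, from 24.7, 20.9 and 14.4 to 10.97, 11.9 and 10.6 scaled TPM. SWI5, which encodes an activator of M/G1 genes, fell by 0.87, from 37.7, 33.8 and 26.9 to 17.8, 16.9 and 17.5. These 3 genes had their highest level from 0 to 90 min at 60 min, at the start of the first window.

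The 6 members past the 2-fold rule include CHS2, HOF1, KIN3 and ALK1. CHS2, the chitin synthase that builds the primary septum, stood at 86.6, 75.3 and 58.1 scaled TPM in the first window and at 34.1, 33.9 and 33.7 in the second. It was 2.10-fold lower (log2 difference -1.07, SDs 0.29 and 0.01), and the 3 later levels were nearly equal. HOF1, which encodes a bud-neck protein of the contractile ring, stood at 34.8, 31.7 and 23.7 and then at 14.4, 12.8 and 14.3 (2.07-fold lower). KIN3, a protein kinase gene, stood at 34.3, 32.8 and 25.04 and then at 16.3, 14.5 and 11.4 (2.11-fold lower). ALK1, a haspin-type kinase gene, stood at 53.0, 43.6 and 35.5 and then at 19.9, 20.7 and 21.97 (2.03-fold lower). All 4 lie within 0.1 of the 2-fold limit on the log2 scale. They lost the call without the 60 min library and also with 90 min added to the first window.

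PMP2 encodes a small proteolipid of the plasma membrane proton pump. It stood at 1555, 1318 and 1162 scaled TPM at 60-80 min and at 412, 631 and 447 at 110-130 min, 2.73-fold lower (log2 difference -1.45, SDs 0.21 and 0.33). PMP1, which encodes a nearly identical peptide, had the larger difference of -1.70 but an irregular course of 431, 376 and 628 and then 72.7, 232 and 174, and it was listed at 0 at 1 of the 30 time points. The 2 genes are short and similar, so reads may be divided between them and their values are uncertain. PMA1, the pump itself, was named after its values were seen and fell by 0.73, from 4144, 3939 and 3254 to 2191, 2239.9 and 2376 scaled TPM.

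**Figure D1:**
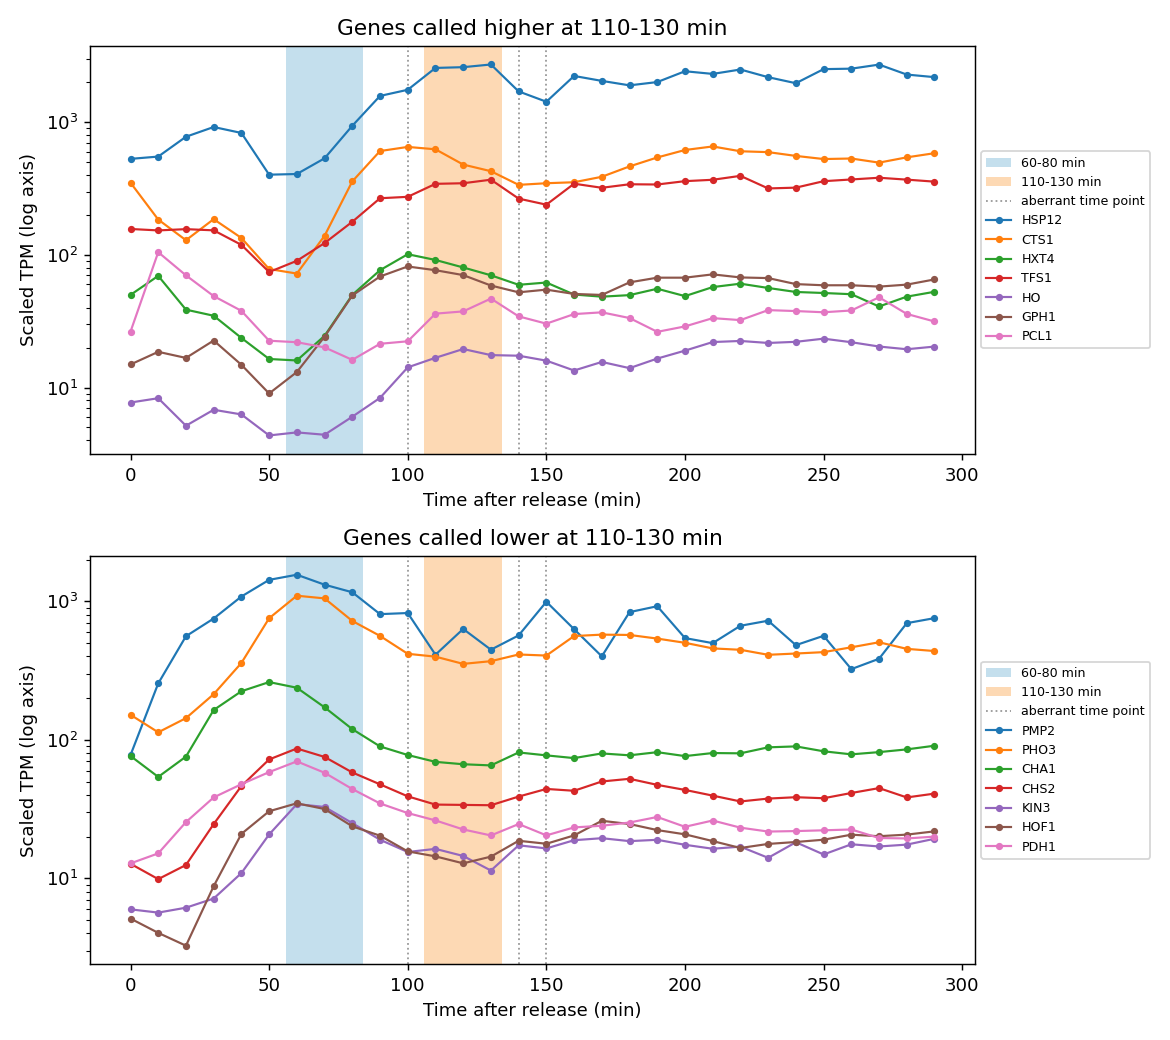
Scaled TPM (log axis) at the 30 time points for 7 genes called higher and 7 called lower at 110-130 min, with 1 point per library, the 2 windows shaded and the aberrant time points 100, 140 and 150 min dotted. HSP12 climbs from 407 at 60 min to 2723 at 130 min, and CHS2 declines from 86.6 at 60 min to 33.7 at 130 min.

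The G1/S genes were higher at 110-130 min. Of the 42 members used, 33 rose with no overlap (78.6%, beside 21.1% of all features), 1 fell, and the median difference was 0.34. Over the alternatives tried, between 22 and 36 members were higher with no overlap, with the lowest number on the TPM as deposited. The member that fell was RAX2, a bud-site gene with its highest first-cycle level at 50 min, at a difference of -0.65. The list's median level was lowest, among the time points from 30 to 90 min, at 70 min and highest, from 100 to 190 min, at 120 min.

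PCL1, a G1 cyclin gene of the Pho85 kinase, was the member past the 2-fold rule. It stood at 21.96, 20.1 and 16.2 scaled TPM at 60-80 min and at 36.1, 37.5 and 46.8 at 110-130 min, 2.02-fold higher (log2 difference 1.01, SDs 0.22 and 0.20). Its decline in the first window and its climb in the second left no overlap, and the call, at the limit, was lost under 8 of the alternatives. At 10 min, in the first G1/S wave after release, PCL1 had stood at 105 scaled TPM. CLN2, a G1 cyclin gene, rose by 0.59, from 40.8, 42.4 and 47.2 to 64.1, 65.1 and 68.6. CLN1, the related cyclin gene, rose by 0.48, from 9.52, 8.58 and 8.67 to 11.9, 12.6 and 14.05. CLB5, an S-phase cyclin gene, rose by 0.23, from 15.3, 15.5 and 14.8 to 19.4, 18.7 and 15.998. CLB6, its paralog, stood between 3.51 and 4.57 scaled TPM in both windows, fell under the 10 TPM minimum and overlapped.

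The 3 largest differences of the G1/S list after PCL1 were those of RNR1, POL30 and MCD1, named after their values were seen. Other replication genes of the list lay lower, with 0.35 for POL1 and 0.17 for CDC9, and PRI1 overlapped at -0.06. RNR1, the large subunit of ribonucleotide reductase, rose by 0.78, from 85.9, 74.6 and 69.9 to 120, 140 and 139 scaled TPM. POL30, the sliding clamp PCNA, rose by 0.75, from 52.1, 50.1 and 57.1 to 89.8, 91.6 and 88.3. MCD1, the kleisin subunit of cohesin, rose by 0.69, from 12.5, 11.5 and 11.9 to 16.6, 21.6 and 22.4. In each of the 3 genes the lowest later level was above the highest earlier level. CLN3, the upstream G1 cyclin gene, had a difference of -0.11 with overlapping windows (40.8 to 46.1 and 40.1 to 41.6), and SWI4, the DNA-binding subunit of SBF, had 0.07 (10.6 to 13.6 and 10.8 to 13.7).

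HO, the endonuclease gene of mating-type switching, was called higher and is transcribed in late G1. It stood at 4.59, 4.41 and 6.02 scaled TPM at 60-80 min and at 16.8, 19.5 and 17.6 at 110-130 min. It was 3.17-fold higher (log2 difference 1.66, SDs 0.21 and 0.11), with every later level more than double any earlier one. HO differed from PCL1 in the first wave, since its level at 10 min was 8.31 scaled TPM, below the later window.

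Histone transcripts were low at the end of the first window and climbed through the second. Of the 8 core histone genes, 5 rose with no overlap (62.5%, beside 21.1% of all features), 0 fell, and the median difference was 0.44. HTA1, a histone H2A gene, stood at 428, 364 and 301 scaled TPM and then at 519, 557 and 685 (difference 0.69). HTA2, the other H2A gene, stood at 252, 216 and 164 and then at 276, 333 and 413 (0.69). The H3 genes HHT1 and HHT2 rose by 0.48 and 0.40, and HHF2, an H4 gene, rose by 0.48. The H2B genes HTB1 and HTB2 and the H4 gene HHF1 had differences of 0.31, 0.36 and 0.34 with overlap. In all 8 genes the highest level of the second window was at 120 or 130 min. Without the 60 min or the 110 min library all 8 were higher with no overlap, and with 100 min added 0 were. Paired histone genes are nearly identical, so reads may be divided between copies.

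**Figure D2:**
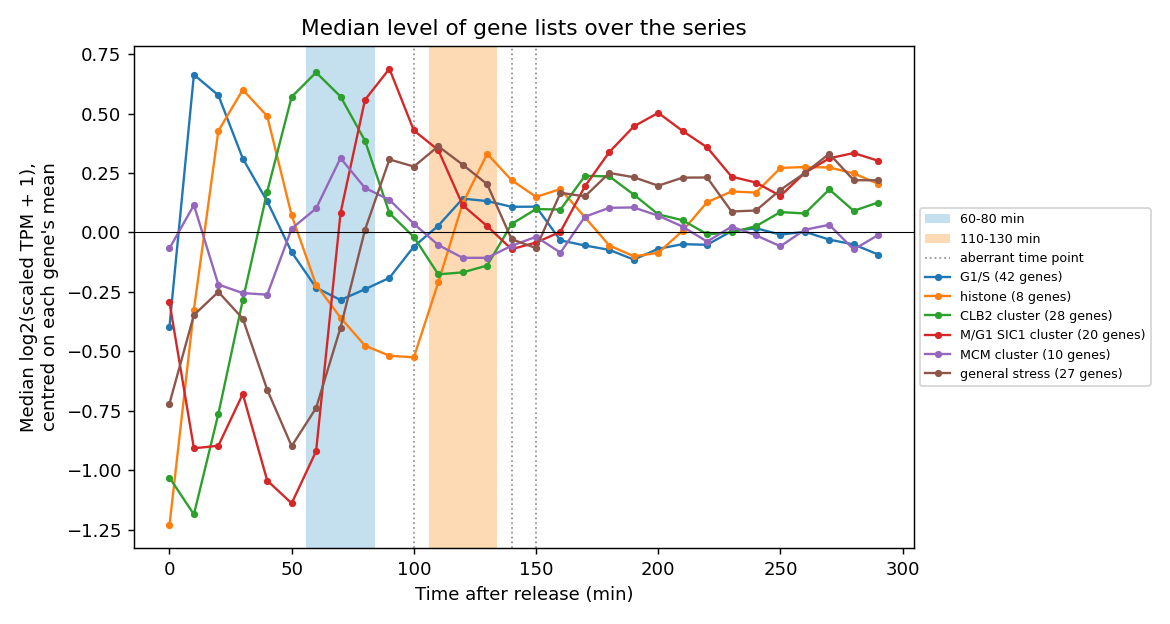
Median over the members of 6 gene lists of log2(scaled TPM + 1), centred on each gene's mean over the series, against time after release in min, with 1 point per time point. The CLB2 cluster peaks at 60 min, the M/G1 list at 90 min and the G1/S list at 10 and 120 min, and the histone list has peaks at 30 and 130 min.

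The M/G1 genes had no common direction, and the first window held both their low and their high levels. Of the 20 members used, 4 rose and 1 fell with no overlap and 15 overlapped, with a median difference of 0.11. The shares that rose and fell were 20.0% and 5.0%, beside 21.1% and 16.3% of all features. The list's median level, centred on each gene's mean, was -0.92 at 60 min. It reached 0.56 at 80 min, then 0.69 at 90 min, and declined to 0.35, 0.11 and 0.03 over 110, 120 and 130 min. Without the 60 min library 7 members were lower, and without the 80 min library 9 were higher.

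CTS1, the chitinase that separates daughter from mother, stood at 72.3, 139 and 358 scaled TPM at 60, 70 and 80 min and at 625, 479 and 427 at 110, 120 and 130 min. It was 3.27-fold higher (log2 difference 1.71), and the SD over time points, 1.15 in the first window and 0.28 in the second, shows how steep the first window was. The call of CTS1 was lost with 90 min added to the first window. PIR3, a cell wall protein gene, stood at 63.2, 81.3 and 112 and then at 221, 204 and 199.8 (2.48-fold higher, SDs 0.41 and 0.08). SIC1, which encodes the inhibitor of the S-phase and mitotic cyclin kinase, stood at 27.5, 58.6 and 67.2 and then at 47.6, 42.2 and 41.0, with a difference of -0.13 that was 0.11 without the 80 min library. ASH1, a daughter-cell repressor of HO, stood at 41.4, 80.4 and 91.5 and then at 55.7, 44.9 and 45.5, with a difference of -0.47. In both genes the 60 min library lay below every later level and the 70 and 80 min libraries lay above every later level. CTS1 had its highest levels later than SIC1 and ASH1, at 90 min against 80 min among the time points to 90 min.

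DSE2, a glucanase-like gene of daughter cells chosen after its values were seen, had a difference of 1.39 and did not pass. It stood at 28.9, 38.3 and 117 and then at 160, 131 and 115, so the 80 min library overlapped the 130 min library. CDC6, which loads the replicative helicase, was the member that fell, from 14.8, 18.3 and 15.3 to 12.8, 10.8 and 12.2 scaled TPM.

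Of the helicase genes themselves, MCM2, MCM4, MCM6 and MCM7 were lower with no overlap. The MCM list also holds CDC6, CLN3, SWI4 and YHP1. In it 5 of 10 members fell with no overlap, CDC6 among them, and 0 rose. The share that fell was 50.0%, beside 16.3% of all features, and the median difference was -0.28. MCM4 fell by 0.55, from 36.2, 34.2 and 33.2 to 24.2, 24.2 and 21.5 scaled TPM. MCM2, MCM6 and MCM7 fell by 0.46, 0.38 and 0.48, and MCM3 and MCM5 had differences of -0.14 and -0.18 with overlap. Without the 60 min library 8 of the 10 were lower. In the S and G2 list, which lies between the G1/S and mitotic waves, 3 of 12 members fell, 0 rose and 9 overlapped, and the median was -0.15, with 8 lower without the 80 min library.

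**Figure D3:**
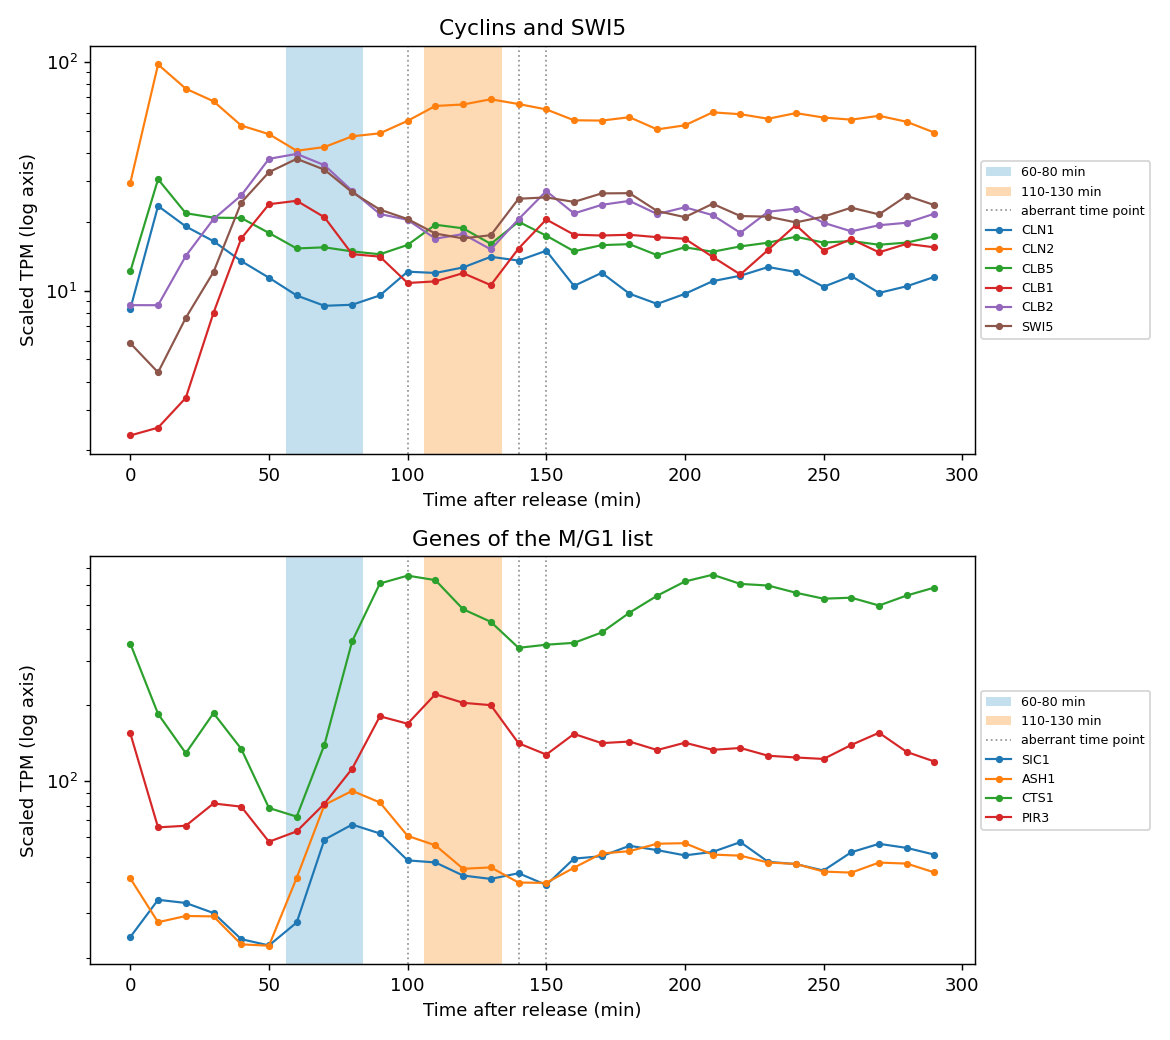
Scaled TPM (log axis) at the 30 time points for cyclin genes and SWI5 (upper panel) and for 4 M/G1 genes (lower panel), with 1 point per library and the windows shaded. CLB2 declines from 39.6 at 60 min to 15.1 at 130 min while CLN2 climbs from 40.8 to 68.6, and SIC1 climbs from 27.5 to 67.2 within the first window.

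Among called genes with a symbol and above 0 TPM at all time points, HSP12 had the largest rise. HSP12 encodes a small membrane-associated stress protein, a common marker of the general stress response that Msn2 and Msn4 drive through AGGGG elements. It stood at 407, 534 and 939.5 scaled TPM at 60-80 min and at 2565, 2598 and 2723 at 110-130 min. It was 4.46-fold higher (log2 difference 2.16, SDs 0.61 and 0.05), and it had climbed at each step from 50 min, where its level of 402 was the lowest of the series. Its level of 2723 at 130 min was the highest of the 30 time points, and it remained at 1427 or more afterwards. Of the 27 members of the general stress list used, 18 rose with no overlap, 6 of them at least 2-fold, and 1 fell. The shares that rose were 66.7% and 22.2%, beside 21.1% and 0.526% of all features. The median difference was 0.66. The member that fell was YGP1, a secreted glycoprotein gene, at -0.67.

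Members of the general stress list past the 2-fold rule were GPH1, PGM2, HXK1, SOL4, DDR2 and TFS1. GPH1, glycogen phosphorylase, stood at 13.1, 24.2 and 49.4 scaled TPM and then at 76.6, 70.4 and 58.7 (2.65-fold higher). PGM2, phosphoglucomutase, stood at 21.7, 30.9 and 49.8 and then at 87.2, 77.6 and 71.7 (2.39-fold higher). HXK1, a hexokinase, stood at 110.4, 202 and 325 and then at 483, 413 and 386 (2.19-fold higher). In these 3 genes the level more than doubled between 60 and 80 min and then declined from 110 to 130 min. SOL4, a 6-phosphogluconolactonase, rose 2.52-fold, and DDR2, a stress-induced gene, rose 2.32-fold, from 279.8, 376 and 474 to 915, 874 and 778. TFS1, an inhibitor of carboxypeptidase Y, stood at 90.2, 123 and 178 and then at 343, 347 and 369 (2.80-fold higher). PBI2, an inhibitor of vacuolar protease B that is in no list, rose 2.50-fold, from 49.3, 97.5 and 125 to 240.1, 185 and 215. EGO4 rose 2.48-fold, from 38.1, 39.5 and 58.4 to 108, 117 and 111. Without the 60 min library GPH1, PGM2, HXK1, SOL4 and PBI2 lost the 2-fold call. GPH1, PGM2 and HXK1 also lost it with 90 min added to the first window. HXK1 lost it on the TPM as deposited and after quantile normalization as well. Of the 20 genes called higher that have a symbol and lie above 0 at every time point, 18 climbed at each step from 60 to 80 min. Adding the 90 min library to the first window left 6 of the 27 general stress members higher with no overlap, and leaving out 80 min gave 26.

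Of the heat shock list, by contrast, most members that moved went down. Of its 30 members, 15 fell and 4 rose with no overlap, and the median difference was -0.17. These shares were 50.0% and 13.3%, beside 16.3% and 21.1% of all features. The culture grew at 38.5°C throughout. HSP30, a plasma membrane protein that lowers proton pump activity, stood at 152, 135 and 122 scaled TPM and then at 69.7, 59.9 and 60.5 (2.13-fold lower, log2 difference -1.09, SDs 0.16 and 0.12). Every later level lay well below the lowest earlier level. YRO2, a related membrane protein gene that is not in the list, stood at 266, 307 and 236 and then at 143, 122 and 112 (2.14-fold lower). The chaperone genes HSP82 and SSA4, named after their values were seen, fell by 0.30 and 0.53. HSP26, a small heat shock protein that stress factors also induce, rose 2.20-fold, from 65.6, 86.0 and 113 to 202, 175 and 195, and HSP12, which the list also holds, rose as above. The calls of HSP26, HSP30 and YRO2 were lost with 90 min added to the first window. That of HSP26 was also lost without the 60 min library, and that of YRO2 without the 70 min library.

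Sugar uptake and energy genes were higher. Over all features, 21.1% rose and 16.3% fell with no overlap. Of 6 hexose transporter genes used, 4 rose, 1 fell, and the median was 0.47. HXT4, a transporter of intermediate affinity, stood at 15.99, 24.5 and 49.9 scaled TPM and then at 91.5, 80.3 and 70.1 (2.89-fold higher, SDs 0.80 and 0.19). HXT7, a high-affinity transporter, stood at 58.6, 95.1 and 188 and then at 314, 247 and 190.0 (2.40-fold higher). The call of HXT7 was lost on the TPM as deposited, after quantile normalization and without the 60 min library. Those of HXT4 and HXT7 were both lost with 90 min added to the first window. The windows of HXT7 were separated by about 2 scaled TPM, and it is nearly identical to HXT6, so its reads are uncertain. Of 18 glycolysis members 12 rose, 0 fell, and the median was 0.19, with 6 higher after quantile normalization and 4 with 100 min added. Of 44 members of the respiration list, which holds the citric acid cycle and the respiratory chain, 34 rose, 1 fell, and the median was 0.30, whereas on the TPM as deposited 16 rose and 6 fell and with 90 min added to the first window 19 rose. CYC7, the minor isoform of cytochrome c, passed the 2-fold rule at 1.01 and was called higher, with STF2 (1.05), GND2 (1.06) and MSC1 (1.04), the rest of the 20 named features. These 4 calls were lost on the TPM as deposited, without the 60 min library and with 90 min added to the first window.

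Genes of the ribosome were split, beside 21.1% of all features higher and 16.3% lower with no overlap. Of 81 ribosome biogenesis members 27 fell and 0 rose with no overlap, with a median difference of -0.14, and 8 had a difference above 0. Of 136 ribosomal protein genes 77 rose and 1 fell, with a median of 0.14. Both shifts are about the size of the 0.13 by which the scaling moves all features. For ribosomal protein genes the direction depended on the scaling. On the TPM as deposited 21 rose and 16 fell, after quantile normalization 11 rose and 23 fell, and with 100 min added 2 rose and 1 fell. Without 70 min 109 rose. For ribosome biogenesis genes 60 fell on the TPM as deposited, 64 fell without the 80 min library, and 10 fell with 90 min added to the first window.

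**Figure D4:**
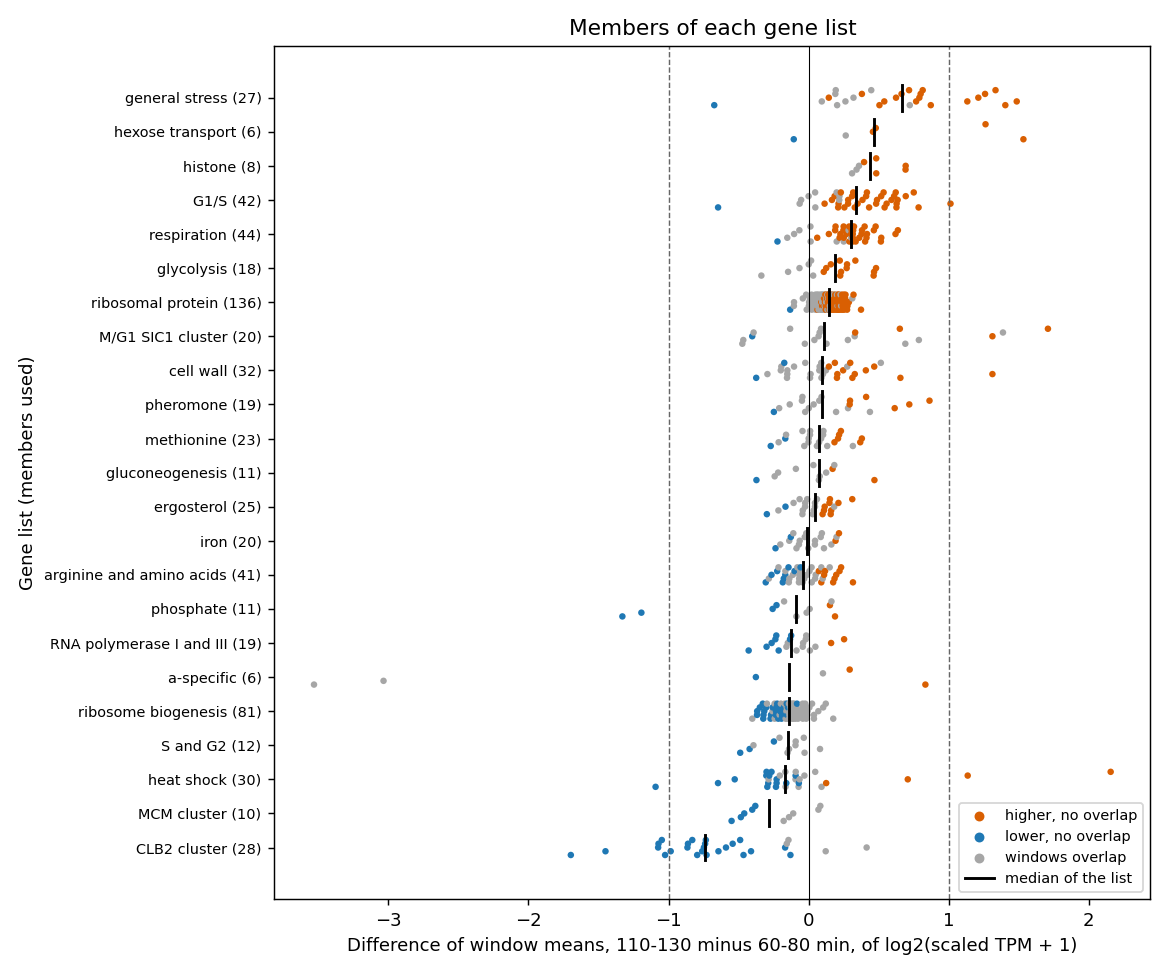
Difference between the windows (110-130 minus 60-80 min, log2 scale) for each member of 23 gene lists, ordered by the list's median, which is drawn as a bar. Dashed lines mark the 2-fold limits, and points are coloured by whether the 3 and 3 levels overlapped. The CLB2 cluster (median -0.74) and the general stress list (0.66) lie at opposite ends.

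Several falls lay outside the cell cycle lists. PHO3 and PHO5 encode neighbouring and very similar acid phosphatases, and reads may be divided between them. PHO3 stood at 1097, 1049 and 721 scaled TPM and then at 398, 353 and 370 (2.51-fold lower, SDs 0.33 and 0.09). PHO5 stood at 112, 127 and 105 and then at 57.9, 43.3 and 48.1 (2.29-fold lower), and its first window did not decline step by step as that of PHO3 did. Of the 11 phosphate list members used, 4 fell and 2 rose with no overlap, with a median of -0.09. These shares were 36.4% and 18.2%, beside 16.3% and 21.1% of all features. CHA1, which breaks down serine and threonine, stood at 238, 172 and 120 and then at 69.3, 66.6 and 65.4 (2.51-fold lower, SDs 0.49 and 0.04). PDH1, a gene of propionate metabolism, stood at 69.9, 57.8 and 44.1 and then at 26.2, 22.5 and 20.4 (2.39-fold lower). TOM7, a subunit of the mitochondrial import pore, stood at 71.1, 86.0 and 153 and then at 47.4, 51.3 and 33.6 (2.23-fold lower), and its level over the series was irregular, between 6.23 and 153. The call of TOM7 was lost with 100 min added to the second window and without the 80 min or the 130 min library.

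In the remaining lists, counts higher and lower with no overlap were 9 and 2 of 25 for ergosterol, 6 and 2 of 23 for methionine, 10 and 9 of 41 for amino acids, 2 and 2 of 20 for iron, 12 and 2 of 32 for the cell wall, 2 and 1 of 11 for gluconeogenesis and 2 and 8 of 19 for RNA polymerases I and III. These small differences depended on the scaling, since on the TPM as deposited the counts were 1 and 8 for ergosterol and 2 and 27 for amino acids. Of 19 pheromone response genes 6 rose and 1 fell, with a median of 0.09, and without the 80 min library 10 rose. FUS1, a cell fusion gene that pheromone induces, had a difference of 0.44 with overlap, at 31.4, 39.3 and 52.1 and then 63.4, 52.5 and 49.0 scaled TPM. The shares behind these counts stand beside those of all features, 21.1% higher and 16.3% lower, in the plot of members without overlap.

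**Figure D5:**
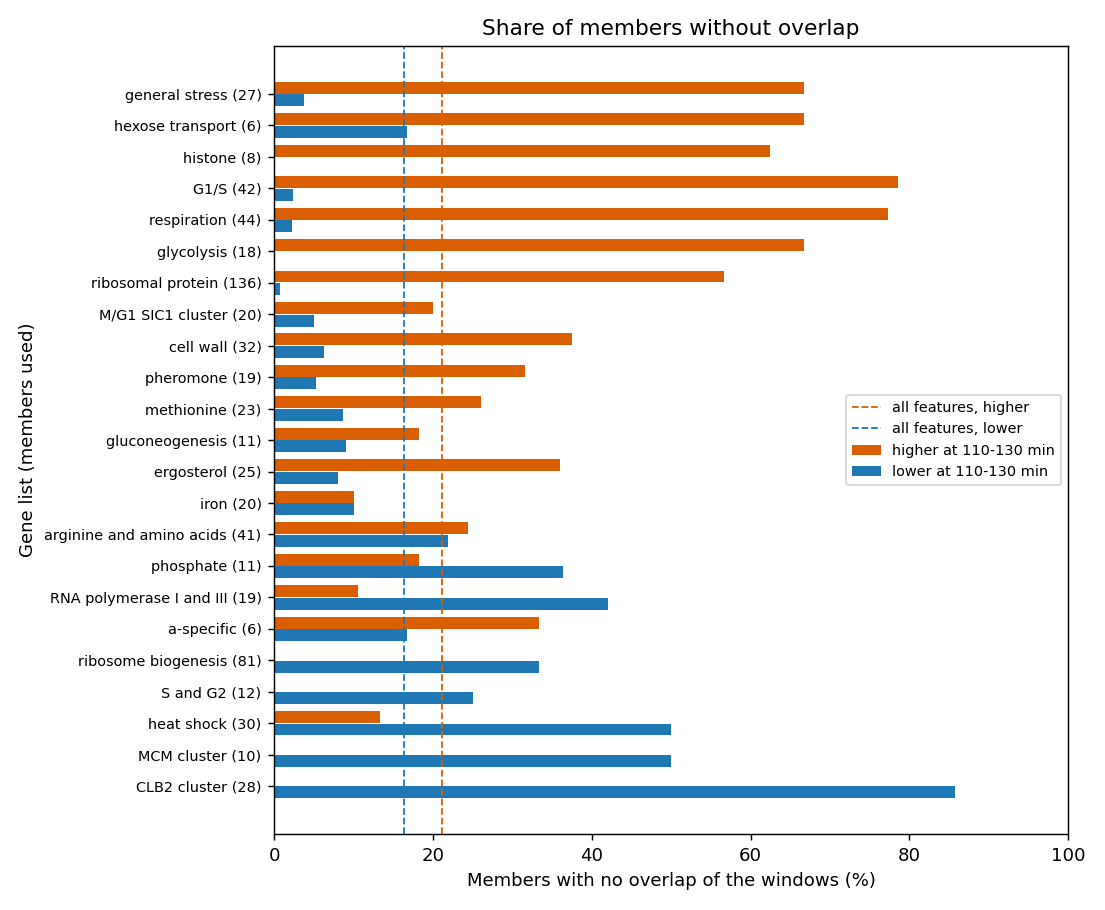
Share of the members of 23 gene lists (in %) whose 3 later levels lay all above (orange) or all below (blue) their 3 earlier levels, with the shares over all features as dashed lines at 21.1% and 16.3%. The CLB2 cluster reaches 85.7% lower and the G1/S list 78.6% higher.

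Outside the named pool, 7 features called higher and 6 called lower had no symbol or a level of 0 somewhere, among them PMP1. YER067C-A rose by 1.76 and YER066C-A by 1.36, and YKL106C-A and YJL127W-A had the 2 largest negative differences but were listed at 0 at 17 and 13 of the 30 time points, so no fold is given. Of the 6 a-specific genes used, AGA2 and ASG7 rose by 0.83 and 0.29 and STE6 fell by 0.38 with no overlap, and 3 overlapped. The summed level of the a-specific list ran from 2023 to 4610 scaled TPM in the first window and from 1031 to 3780 in the second. That of the alpha-specific list ran from 38.4 to 46.3 and from 41.5 to 48.3. Its member SAG1 was not called but rose by 0.16 with no overlap, a separation not found on the TPM as deposited. STE2, the alpha-factor receptor of MATa cells, stood between 224 and 253 scaled TPM in the first window and between 225 and 289 in the second. BAR1, the gene that the bar1 label names, was listed at 0 at all 30 time points. MFA1, an a-factor gene, was listed at 0 at 28 of 30 time points, and MFA2, the other a-factor gene, at 0 at 5, and such zeros in a file without counts can be failed estimates. Both genes are in the summed a-specific list. On the log2 scale the SD of MFA1 was 6.12 in the first window and that of MFA2 was 6.59 in the second. The sums therefore do not show a common change of the list. STE3, the receptor of the opposite mating type, stood between 4.68 and 7.72 scaled TPM in the 6 libraries.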

How the data were processed

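One library of total RNA (Illumina Stranded mRNA Prep) was made at each of 30 time points of 1 culture. The authors aligned reads with STAR, quantified them with RSEM against R64 and deposited TPM, which sum to 1000000 per time point. Versions and the strand setting are not given in the sources used here, and TPM keep no depth, so no interval from counts is given. A second deposited table, of corrected scores, names no method and was used only as a check. The study lists 100 min as aberrant in a table and a figure legend and names 110 min instead in its text and methods.

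Median-of-ratios factors were computed here over the 6170 features above 0 TPM at all time points (1.06 to 1.10 at 60-80 min, 0.958 to 1.01 at 110-130 min). The pseudocount was 1. Symbols came from R64 by locus tag (4773 of 5137 features). Each label gives a single sample per time, so no test was run. Python 3.11.15, numpy 2.4.6, pandas 2.3.3 and matplotlib 3.10.9 were used. The scaling and the rule were also run on simulated constant levels with independent noise and a step change. That simulation holds no trend within a window, so it does not show how the rule does on genes that change within one.

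Genes named are the 15 largest rises and the 15 largest falls among called features with a symbol and above 0 TPM at all time points (12 falls qualified), up to 4 called members per list, and a fixed set of cyclin, histone, MCM, M/G1 and mating genes. The comparison, members and gene lists were chosen with earlier results of these data known. Alternatives tried were no scaling, quantile normalization, other factors, filters, pseudocounts and fold limits, 90 or 100 min added, and leaving out each time point.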

Additional observations from a re-analysis of the deposited data

How the results depend on the processing

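No called gene given by the naming rule changed direction under the alternatives tried. Leaving out time points, filters, fold limits and pseudocounts could not reverse a call, which requires windows without overlap. No scaling, quantile normalization, other factors and the added time points could have done so. The differences of SIC1, SWI4 and STE2, whose windows overlap, changed sign under some alternatives, and the balance of higher and lower turned without scaling for all features and after quantile normalization for ribosomal protein genes. Features called higher numbered 122 and lower 53 at 1.5-fold, and 12 and 8 with 90 min added to the earlier window. With 90 min added, 11 of the 27 features called higher and 8 of the 18 called lower kept their call. Leaving out 1 time point gave 15 to 38 called higher, 16 to 22 called lower, 1261 to 1459 higher without overlap and 1012 to 1289 lower without overlap, the last number without 80 min, the larger numbers in part because fewer values must be separated. The numbers higher and lower without overlap were 408 and 1958 on the TPM as deposited, 558 and 484 with 100 min added, 653 and 494 with 90 min added, and 1644 and 1472 without 80 and 110 min, an alternative chosen after seeing the data. Of 969 log2 differences of named genes under alternatives, 948 moved by less than the spread between time points. Of 697 counts of list members, 556 stayed within 1.5 times. Filters and fold limits cannot change either value, nor pseudocounts a count, so those settings are unmoved by construction. The spread also holds the trend within a window, so a steep gene can hardly move past it. The calls of PHO3, PHO5, HO, PMP2, HSP12, PIR3, TFS1, CHA1, EGO4, DDR2 and PDH1 held under every alternative tried. In the deposited corrected scores, 29 of the 29 called genes that the naming rule gave kept their direction without overlap. CYC7, STF2, GND2 and MSC1 were not looked up. The scores are of the same libraries, so this is no independent check. Of all 45 named genes without overlap, 43 kept their direction, and HHT2 and HHF2 overlapped in the scores. CLN3 and MCM3, whose scaled TPM overlap, were lower in the scores without overlap. No paired analysis was possible because every time is a single library. The depth of the libraries is unknown, so no limit from depth can be given.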
